A study of Mus musculus with 10 samples.

Results

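TRIM genes, which encode the tripartite motif family of ubiquitin ligases, were read from arrays of bone marrow-derived macrophages (BMDMs) of WT and Rac2-/- mice. A gene was counted as a member when its symbol in the platform annotation was Trim followed by a number, with or without a letter. The annotation named 66 such genes. Of these, 58 had a feature (the probe set of a transcript) of their own, and 56 of the 58 passed the filter on low values and were tested, among 16883 genes tested of the 19937 with a feature of their own. Trim31 and Trim38 did not pass. The other 8 were named only on features shared between genes, Trim5 with Trim12a and Trim12c, Trim17 with H2aw, Trim30b with Gm38525, Trim60 with Trim61, and Trim43a, Trim43b and Trim43c with one another, and they have no value here. Levels are log2 values, and every difference is WT minus Rac2-/-, so that a positive value means a higher level in WT BMDMs.

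The samples were 5 arrays of WT and 5 arrays of Rac2-/- BMDMs from male C57BL mice, numbered 1 to 5 in each group. Rac2 is a small GTPase of blood cells, and the mice lacked it in the whole animal. All cells were grown without further treatment in MCSF at 50 ng/ml for 7 days, with 20% FBS and 16% oxygen, and were over 80% Mac1-positive on day 8. The labels speak of 5 mice per genotype but do not tie an array to a mouse. A p-value therefore rests on how these arrays vary, and some of that variation may be technical.

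Most TRIM proteins have a RING finger that binds a ubiquitin-conjugating enzyme, with B-box zinc fingers and a coiled coil through which they pair. Some, Trim14 among them, lack the RING finger. The proteins differ in the domain at the end of the chain. Members with a B30.2 domain at that end include many that act in the response to viruses, either by binding viral proteins or by attaching ubiquitin to sensors and adaptors of the interferon pathway. In macrophages many of these genes are themselves switched on by type I interferon, through transcription factors that bind the interferon-stimulated response element. Other members end in a PHD finger and bromodomain and act on chromatin, in NHL repeats that bind RNA, or, after a COS box, in domains that hold them to microtubules or to the muscle sarcomere.

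The core of the interferon-stimulated response element, GAAANNGAA on either strand, was looked for in the promoter windows that RefSeq gives on GRCm38.p6, from 250 bases before to 50 bases after an annotated start. A window was there for 51 of the 66 TRIM genes, and 11 of the 51 (21.6%) held the motif, beside 9.76% of 27025 genes. A list of 9 TRIM genes, called the chromosome 7 group here, holds Trim21 and relatives of Trim5 on that chromosome. It is a chosen list and need not hold every TRIM gene of the chromosome. The motif stood in 7 of its 9 genes, Trim5, Trim12a, Trim12c, Trim21, Trim30a, Trim30d and Trim34a. The windows of Trim6 and Trim30b did not hold these letters. The other 4 genes with the motif were Trim25, Trim26, Trim2 and Trim7. The gamma-activated site, TTCNNNGAA, stood in 5 of 51 TRIM genes (9.80%), beside 9.55% of all genes, and in 0 of the 9 genes of the chromosome 7 group. Stretches of 30 bases are printed for 8 genes whose levels are described next, because they show how alike these starts are. Capitals mark the motif, which reads TTCNNTTTC where it lies on the strand opposite to the gene.
Trim21 (chr7:102565448-102565477, minus strand): tctgagagGAAACTGAAAGTGAAatttgga
Trim34a (chr7:104244457-104244486, plus strand): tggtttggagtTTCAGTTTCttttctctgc
Trim12a (chr7:104315466-104315495, minus strand): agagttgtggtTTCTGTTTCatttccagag
Trim12c (chr7:104353359-104353388, minus strand): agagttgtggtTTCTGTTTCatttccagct
Trim30a (chr7:104465210-104465239, minus strand): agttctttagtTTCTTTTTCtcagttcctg
Trim30d (chr7:104507871-104507900, minus strand): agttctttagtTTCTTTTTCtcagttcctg
Trim25 (chr11:88999383-88999412, plus strand): cgcccctcctgTTCAGTTTCgattccttcc
Trim26 (chr17:36836979-36837008, plus strand): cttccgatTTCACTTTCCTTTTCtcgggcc
The printed stretches of Trim30a and Trim30d were the same at 30 of 30 positions, and those of Trim12a and Trim12c at 28 of 30. A second window of Trim30a, not printed, held the motif 3 bases after its annotated start. Its stretch was the same as that of Trim30d at 26 of 30 positions. The windows of the 2 gene pairs shared runs of 118 bases (Trim30a and Trim30d) and 71 bases (Trim12a and Trim12c). In Trim21 and Trim26 the motif occurred 2 times, with overlap. It began 13 bases after the annotated start in Trim21, 11 bases after it in Trim34a and Trim12a, and 28, 35, 40, 9 and 159 bases before it in Trim12c, Trim30a, Trim30d, Trim25 and Trim26. These genes resemble each other over more than their starts, and probes of the array can take up RNA of a near-identical relative, so the values of Trim12a, Trim12c, Trim30a and Trim30d may each hold signal of another gene.

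Rac2, the deleted gene, had a mean level of 12.10 ± 0.27 (SD, n = 5) in WT and 7.10 ± 0.29 in Rac2-/- BMDMs, a difference of 5.00 (limma adjusted p = 7.73e-07; exact two-sided permutation test p = 0.00794, the smallest that 5 against 5 arrays can give). Of the 11 macrophage marker symbols listed, Emr1 and Adgre1 name the same gene, and 10 were measured. The summed log2 levels of these 10 were 117.7 to 119.4 in WT and 118.7 to 119.8 in Rac2-/- BMDMs, so that both groups bore them. A sum lets opposite changes cancel. Single markers had differences of -1.13 to 0.74, 4 on the WT and 6 on the Rac2-/- side, and 0 had an adjusted p under 0.05. With the array number as a block Fcgr1 was higher in WT and Itgam was higher in Rac2-/- BMDMs. Arrays 1 and 2 stood apart from arrays 3 to 5 in both genotypes. Over all features kept, arrays of the same set correlated at 0.974 to 0.996 and arrays of different sets at 0.934 to 0.955, and the differences of the main genes and lists are therefore also given within the sets, first for arrays 1 and 2 and then for arrays 3 to 5. In such bulk samples, fewer cells of a type and less RNA per cell cannot be told apart.

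No TRIM gene passed the threshold of an adjusted p of 0.05 over all features in either direction (0 of 56 on the WT side and 0 of 56 on the Rac2-/- side, limma). Over all genes, the calls were 1.34% on the WT side and 1.05% on the Rac2-/- side. With the array number as a block, Trim6, Trim14 and Trim25 passed the threshold, all higher in WT, with adjusted p of 0.0296, 0.0352 and 0.0328. That makes 3 of 56, and none higher in Rac2-/- BMDMs, beside 3.51% and 4.04% of all genes. The block takes arrays of one number as pairs, which the values did not single out within a set. With a term for the 2 sets of arrays, 7 TRIM genes were higher in WT (Trim6, Trim12a, Trim14, Trim21, Trim25, Trim30a and Trim30d) and 1, Trim28, was higher in Rac2-/- BMDMs. These are 7 and 1 of 56, beside 5.18% and 6.09% of all genes. Without Rac2-/- array 1, Trim21 (adjusted p = 0.0165) and Trim25 (adjusted p = 0.0443) passed, both higher in WT, which makes 2 of 56, with 0 of 56 in the other direction, beside 1.56% and 1.18% of all genes.

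At an unadjusted p under 0.05 there were 8 TRIM genes, all higher in WT, which are Trim6, Trim14, Trim21, Trim25, Trim30a, Trim30d, Trim34a and Trim56, and 0 were higher in Rac2-/- BMDMs. The share over all genes was 6.04% in the first direction and 6.04% in the second. All 5 WT arrays lay above all 5 Rac2-/- arrays for 4 TRIM genes, Trim25, Trim30a, Trim30d and Trim56, beside 2.78% of all genes. The reverse held for 0 TRIM genes and for 2.76% of all genes. The median difference of the 56 genes was 0.03, and 32 of them lay on the WT side, beside a median of -0.0011 and 49.7% of all genes. The family as a whole thus had no common direction, and its largest values came from 2 of its groups. These counts take in members at low levels, such as Trim75 (mean 4.80) and Trim7 (4.97). The lowest value kept by the filter was 4.73, and the array medians were 6.07 to 6.14. In such members a difference would be hard to see.

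**Figure D1:**
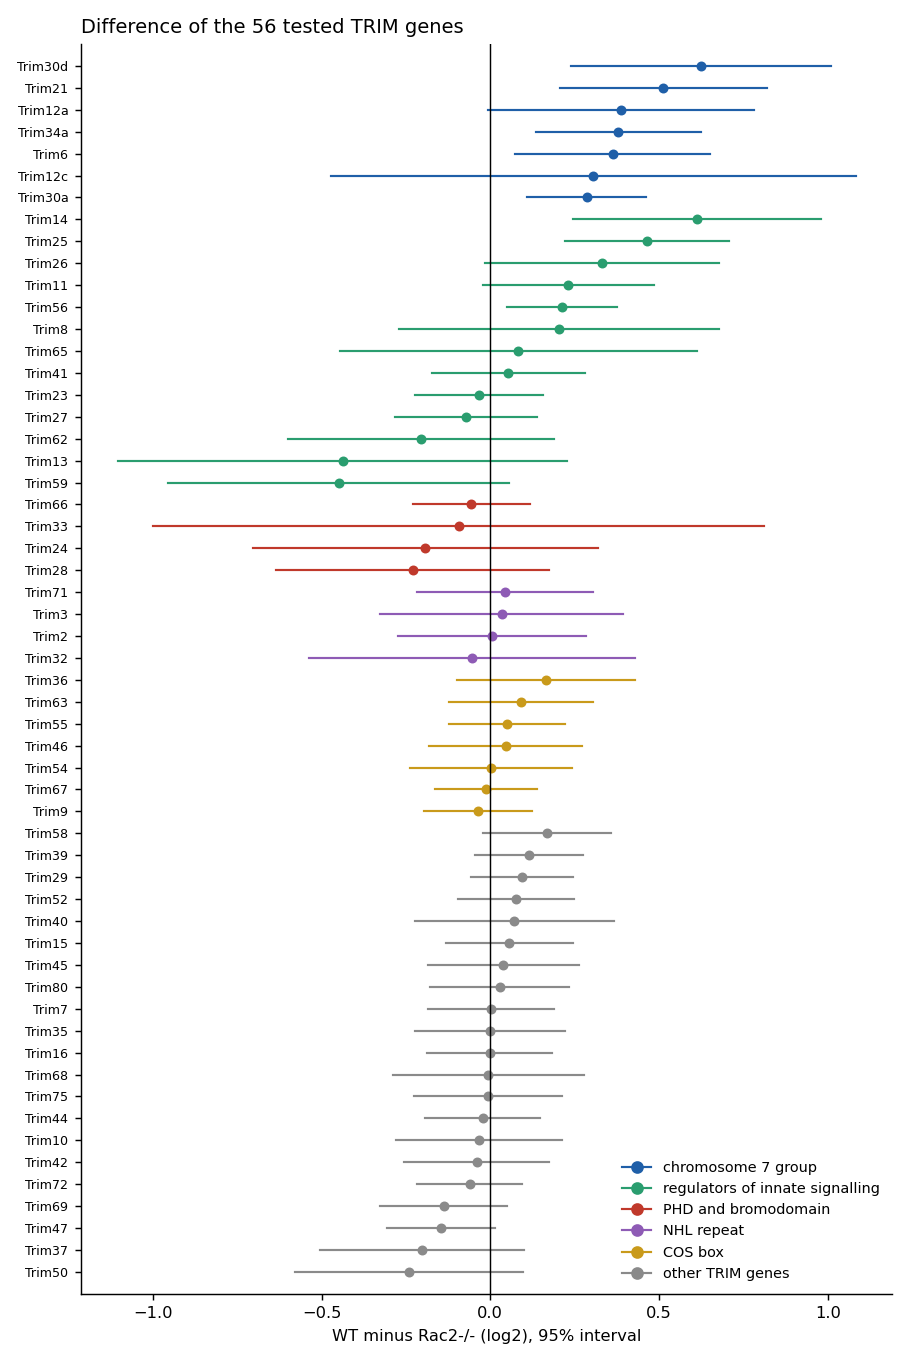
Difference between WT and Rac2-/- BMDMs (x axis, log2, WT minus Rac2-/-) of each of the 56 tested TRIM genes (rows), as the limma estimate with its 95% interval, coloured by group. All 7 genes of the chromosome 7 group lie right of 0, between 0.29 and 0.63, and the intervals of 8 genes exclude 0, all on the WT side.

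The chromosome 7 group holds relatives of the antiviral gene Trim5. In RefSeq's order Trim6, Trim34a, Trim5, Trim12a, Trim34b, Trim12c, Trim30b, Trim30c, Trim30a and Trim30d follow each other with few genes between them, and Trim21 lies elsewhere on the chromosome. All 7 tested genes were on the WT side, with differences of 0.29 to 0.63 and a median of 0.38. The median was 0.25 within arrays 1 and 2 and 0.51 within arrays 3 to 5. None of the 7 passed the threshold (0 of 7), and Trim6 alone did with the array number as a block.

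Trim30d, a gene of the Trim30 cluster, had levels of 10.71, 10.66, 11.12, 11.06 and 11.15 in WT arrays 1 to 5 and of 10.41, 10.05, 10.59, 10.65 and 9.87 in Rac2-/- arrays 1 to 5. Every WT array was above every Rac2-/- array, the closest being WT array 2 and Rac2-/- array 4. The difference was 0.63 (95% interval 0.24 to 1.01, 1.54-fold, adjusted p = 0.132), and it was 0.46 within arrays 1 and 2 and 0.74 within arrays 3 to 5.

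Trim30a, which is known to damp Toll-like receptor signals by removing TAB2 and TAB3, had levels of 12.36, 12.35, 12.46, 12.46 and 12.48 in WT and of 12.24, 12.10, 12.20, 12.20 and 11.93 in Rac2-/- BMDMs. The groups did not overlap here either, and Rac2-/- array 5 was the lowest. The difference was 0.29 (0.11 to 0.46, 1.22-fold, adjusted p = 0.134), with 0.18 and 0.35 within the 2 sets.

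Trim21, a receptor inside the cell for the constant part of antibodies, had levels of 10.30, 10.43, 10.34, 10.33 and 10.45 in WT and of 10.31, 9.70, 9.89, 9.91 and 9.47 in Rac2-/- BMDMs. The WT arrays lay close together (SD 0.07), while the Rac2-/- arrays were spread (SD 0.31), and Rac2-/- array 1 lay among the WT arrays. The difference was 0.51 (0.21 to 0.82, 1.43-fold, adjusted p = 0.117), with 0.36 and 0.61 within the sets, and 0.63 without Rac2-/- array 1.

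Trim34a, a relative of the interferon-inducible human TRIM34, had levels of 8.43, 8.53, 8.75, 8.65 and 8.77 in WT and of 8.47, 8.22, 8.37, 8.20 and 7.97 in Rac2-/- BMDMs. Rac2-/- array 1 was again inside the range of the WT arrays and the other 4 were below it. The difference was 0.38 (0.13 to 0.62, 1.30-fold, adjusted p = 0.154), and the sets differed in its size, with 0.13 within arrays 1 and 2 and 0.54 within arrays 3 to 5.

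Trim6, which makes ubiquitin chains used in interferon signalling through the kinase IKK epsilon, had levels of 6.38, 6.36, 6.81, 6.83 and 6.81 in WT and of 6.12, 6.12, 6.42, 6.47 and 6.25 in Rac2-/- BMDMs. Within each set of arrays every WT array was above every Rac2-/- array. Arrays 1 and 2 were lower than arrays 3 to 5 in both genotypes, so that over all 10 arrays WT arrays 1 and 2 lay below Rac2-/- arrays 3 and 4 and the groups overlapped. The difference was 0.36 (0.07 to 0.65, 1.29-fold, adjusted p = 0.286, and 0.0296 with the array number as a block), with 0.25 and 0.44 within the sets.

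Trim12a and Trim12c, mouse relatives of human TRIM5, differed in the same direction with more spread. The levels of Trim12a were 10.39, 10.53, 10.19, 10.04 and 10.24 in WT and 10.42, 10.10, 9.71, 9.82 and 9.42 in Rac2-/- BMDMs, with a difference of 0.39 (-0.01 to 0.78, adjusted p = 0.5004) and 0.20 and 0.51 within the sets. Those of Trim12c were 9.39, 9.72, 8.44, 8.46 and 8.73 in WT and 9.65, 8.94, 8.27, 8.23 and 8.12 in Rac2-/- BMDMs, with a difference of 0.31 (-0.47 to 1.08, adjusted p = 0.974) and 0.26 and 0.34 within the sets. Leaving out 1 array gave Trim12c differences from 0.11 (without WT array 2) to 0.56 (without Rac2-/- array 1). For both genes Rac2-/- array 1 was above WT array 1, and for Trim12c the 2 sets of arrays were further apart (1.05) than the genotypes.

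Array by array, the median difference over the 7 genes was -0.01 for the arrays numbered 1 and 0.43, 0.39, 0.36 and 0.80 for those numbered 2 to 5. Rac2-/- array 1 was not below the lowest WT array for 4 of the 7 genes, whereas Rac2-/- array 5 was below every WT array for 7 of 7 and the lowest of all 10 arrays for 6. The SD was larger in Rac2-/- than in WT arrays for 6 of the 7 genes, beside 37 of the 56 TRIM genes and 10309 of the 16883 genes tested. The size of the WT to Rac2-/- difference of this group thus varied with the Rac2-/- array that entered it.

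**Figure D2:**
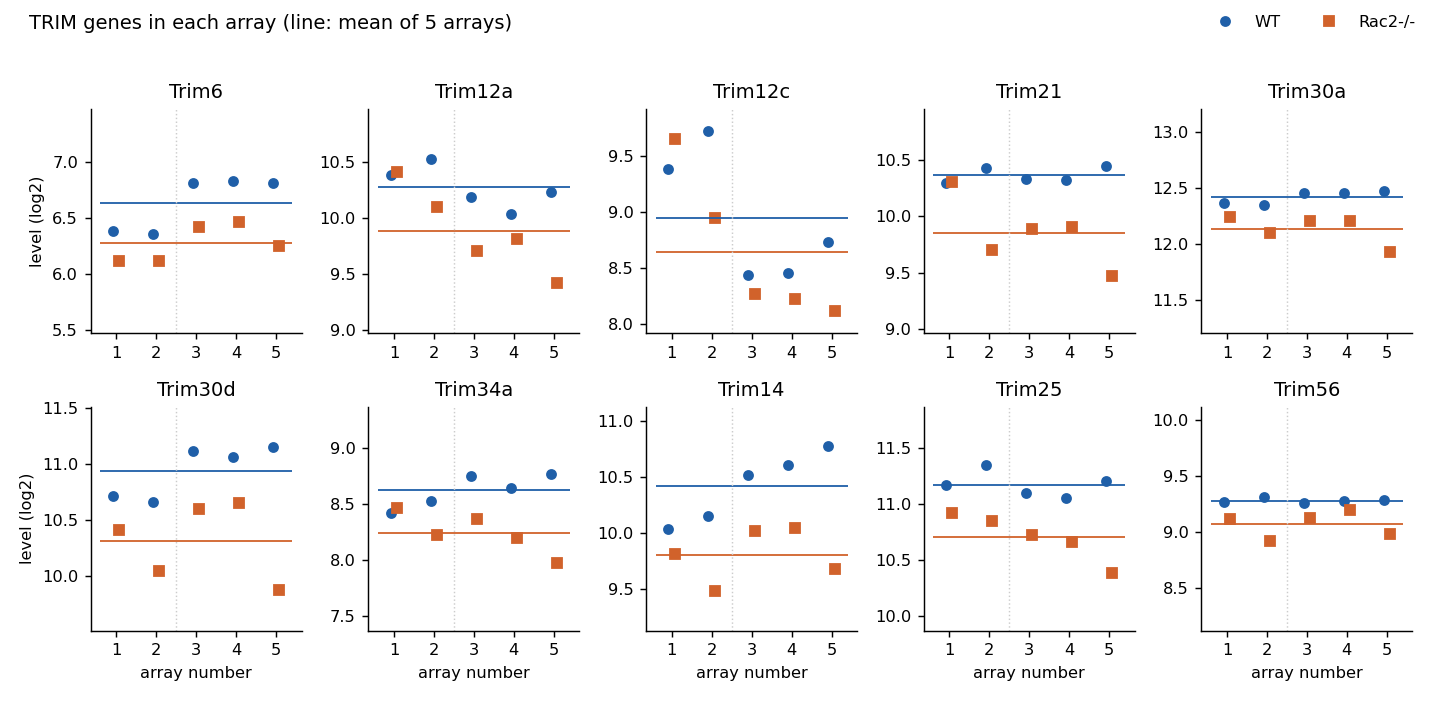
Level (y axis, log2, each panel spanning 2 units) of the 7 tested genes of the chromosome 7 group and of Trim14, Trim25 and Trim56 in each array (x axis, array number), WT as circles and Rac2-/- as squares, with the mean of 5 arrays as a line and a dotted line between arrays 1 and 2 and arrays 3 to 5. Rac2-/- array 1 lies at the WT level for Trim12a, Trim21 and Trim34a, and Rac2-/- array 5 is the lowest for most genes.

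Among the 13 tested TRIM genes outside this group that are listed as regulators of innate signalling, 8 lay on the WT side and 5 on the other. Their median was 0.08, and 0 of 13 passed the threshold. The median was -0.0004 within arrays 1 and 2 and 0.14 within arrays 3 to 5. With the array number as a block, 2 of the 13, Trim14 and Trim25, were higher in WT.

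Trim25 attaches ubiquitin to the RNA sensor RIG-I (Ddx58). Its levels were 11.17, 11.35, 11.10, 11.06 and 11.21 in WT and 10.92, 10.85, 10.72, 10.66 and 10.39 in Rac2-/- BMDMs, and the groups did not overlap. The difference was 0.47 (0.22 to 0.71, 1.38-fold), with 0.37 and 0.53 within the sets. Its adjusted p of 0.0701 was the lowest of the 56 TRIM genes, and it was 0.0328 with the array number as a block.

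Trim14, which lacks the RING finger and acts as an adaptor at the mitochondrial protein MAVS, had levels of 10.04, 10.16, 10.52, 10.61 and 10.78 in WT and of 9.82, 9.48, 10.02, 10.05 and 9.68 in Rac2-/- BMDMs. WT array 1 lay just below Rac2-/- array 4, which is of the other set, and every WT array was above the Rac2-/- array of its number. The difference was 0.61 (0.25 to 0.98, 1.53-fold, adjusted p = 0.117, and 0.0352 with the array number as a block), with 0.45 and 0.72 within the sets.

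Trim56, which acts on the sensing of DNA and RNA in the cytosol, had levels of 9.26, 9.31, 9.26, 9.28 and 9.28 in WT and of 9.12, 8.92, 9.13, 9.20 and 8.98 in Rac2-/- BMDMs. The difference was small, 0.21 (0.05 to 0.37, 1.16-fold, adjusted p = 0.266; 0.27 and 0.17 within the sets), but the WT arrays had an SD of 0.02 and none of the 5 Rac2-/- arrays reached them.

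Trim26 (0.33, -0.01 to 0.68), Trim11 (0.23, -0.02 to 0.48) and Trim8 (0.20, -0.27 to 0.68) were higher in WT in 5 of 5 arrays of the same number, and their adjusted p were 0.522, 0.565 and 0.959. Within the sets the differences were 0.17 and 0.44 for Trim26, a regulator of IRF3, 0.28 and 0.20 for Trim11, and 0.17 and 0.22 for Trim8. Trim65, Trim41, Trim23 and Trim27 had differences of 0.08, 0.05, -0.03 and -0.07. Trim38, a known brake on Toll-like receptor signals, had means of 4.68 ± 0.14 in WT and 4.70 ± 0.21 in Rac2-/- BMDMs, under the filter.

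On the Rac2-/- side the largest difference was that of Trim59, a TRIM with a membrane anchor, with levels of 6.19, 6.51, 6.34, 6.08 and 6.20 in WT and of 6.90, 6.61, 6.32, 6.20 and 7.53 in Rac2-/- BMDMs. Rac2-/- arrays 1, 2 and 5 stood above all WT arrays, array 5 by the most, and the other 2 lay within the WT range. The difference was -0.45 (-0.95 to 0.06, adjusted p = 0.587), with -0.41 and -0.48 within the sets, and it was -0.25 without Rac2-/- array 5. Trim13, a ligase of the endoplasmic reticulum, had levels of 8.78, 8.52, 9.85, 9.83 and 9.55 in WT and of 9.67, 9.06, 10.03, 9.88 and 10.08 in Rac2-/- BMDMs. Each Rac2-/- array was above the WT array of its number, but the sets of arrays were further apart (-0.86) than the genotypes (-0.44, -1.10 to 0.23, adjusted p = 0.805), and the genotype difference was -0.71 and -0.25 within the sets. Trim62, the remaining member of this group, had a difference of -0.21 (-0.60 to 0.19), with -0.26 and -0.17 within the sets.

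The 4 TRIM genes with a PHD finger and bromodomain, which encode transcriptional cofactors, all lay on the Rac2-/- side, with a median of -0.14 (-0.17 and -0.13 within the sets), and 0 of 4 passed. Trim28, the corepressor that KRAB zinc finger proteins recruit to silence transposable elements, had levels of 9.87, 9.70, 9.28, 9.24 and 9.14 in WT and of 10.01, 9.996, 9.42, 9.45 and 9.50 in Rac2-/- BMDMs. Each Rac2-/- array was above the WT array of its number, by similar amounts in both sets (-0.22 and -0.24). The difference was -0.23 (-0.63 to 0.17, adjusted p = 0.877, 0.0835 with the array number as a block and 0.0296 with a term for the sets of arrays). Trim24, a coactivator and corepressor of nuclear receptors, had levels of 6.56, 6.90, 7.49, 7.27 and 7.47 in WT and of 6.70, 7.18, 7.63, 7.55 and 7.60 in Rac2-/- BMDMs. It too was higher in Rac2-/- BMDMs at each of the 5 numbers, with -0.21 within arrays 1 and 2 and -0.18 within arrays 3 to 5, and its difference was -0.19 (-0.70 to 0.32, adjusted p = 0.979). Leaving out 1 array gave from -0.05 (without WT array 1) to -0.35 (without Rac2-/- array 1). Trim33, which acts with SMAD4 in TGF-beta signalling, had a difference of -0.09 (-0.999 to 0.81), and Trim66, a relative best known from the testis, one of -0.06 (-0.23 to 0.12).

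The genes with NHL repeats had differences close to 0. Trim32, a ligase of muscle proteins, had a difference of -0.05 (-0.54 to 0.43), Trim2 and Trim3, which are known from neurons, 0.0047 (-0.27 to 0.28) and 0.03 (-0.33 to 0.39), and Trim71, which binds RNA in early development, 0.04 (-0.22 to 0.30). Of the 7 genes with a COS box, 5 lay on the WT side, between 0.0013 for Trim54 and 0.16 for Trim36 (-0.10 to 0.43), and 0 passed. Among them the muscle ligases Trim63, Trim55 and Trim54 had differences of 0.09, 0.05 and 0.0013, and the neuronal genes Trim9, Trim46 and Trim67 had differences of -0.04, 0.05 and -0.01. The intervals of these 11 genes all held 0, and their limits ran from -0.54 to 0.43 on the log2 scale. Most of the 11 were at low levels. The means of Trim2, Trim9, Trim36, Trim54, Trim55, Trim63 and Trim67 lay at or below the array medians of 6.07 to 6.14. Those of Trim46 and Trim71 lay little above them, and Trim3 and Trim32 were higher. At such low levels a difference would be hard to see, so values near 0 do not show unchanged expression.

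Of the remaining 21 tested TRIM genes, 9 lay on the WT side and 12 on the Rac2-/- side, the median was -0.0019, and 0 of 21 passed. Their differences ran from -0.24 for Trim50 (-0.58 to 0.10) and -0.20 for Trim37 (-0.50 to 0.10) to 0.11 for Trim39 (-0.05 to 0.28) and 0.17 for Trim58 (-0.02 to 0.36). Trim31 had means of 4.72 ± 0.20 in WT and 4.62 ± 0.15 in Rac2-/- BMDMs and was not tested.

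The differences were also set beside the promoter windows, whose letters the choice of members did not use. Of the 56 tested TRIM genes, 10 had a window with the interferon motif, 34 had a window without it and 12 had no window in the table. The 10 with the motif all lay on the WT side, with a median of 0.36 and a range of 0.0020 (Trim7) to 0.63 (Trim30d). Among the 34 without it, 14 lay on the WT side and the median was -0.02. Among the 12 with no window, of which Trim14 is 1, 8 lay on the WT side and the median was 0.07. Of all genes tested, 1151 had the motif in a window, of which 56.5% lay on the WT side with a median of 0.02, and 12160 had a window without it, of which 48.8% lay on the WT side with a median of -0.0037. The pairs Trim12a and Trim12c and Trim30a and Trim30d have like starts, so the members of each pair are not independent of each other. Trim6 (0.36) and Trim56 (0.21) were higher in WT without the motif in their windows, and Trim2 (0.0047) and Trim7 (0.0020) had it with differences near 0. The means of Trim2 and Trim7 lay below the array medians of 6.07 to 6.14. The other tested genes with the motif had means of 8.34 (Trim26) to 12.28 (Trim30a). Many genes without it had means at or below the array medians, where a difference would be hard to see. Whether the contrast holds among genes of like level was not tested.

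**Figure D3:**
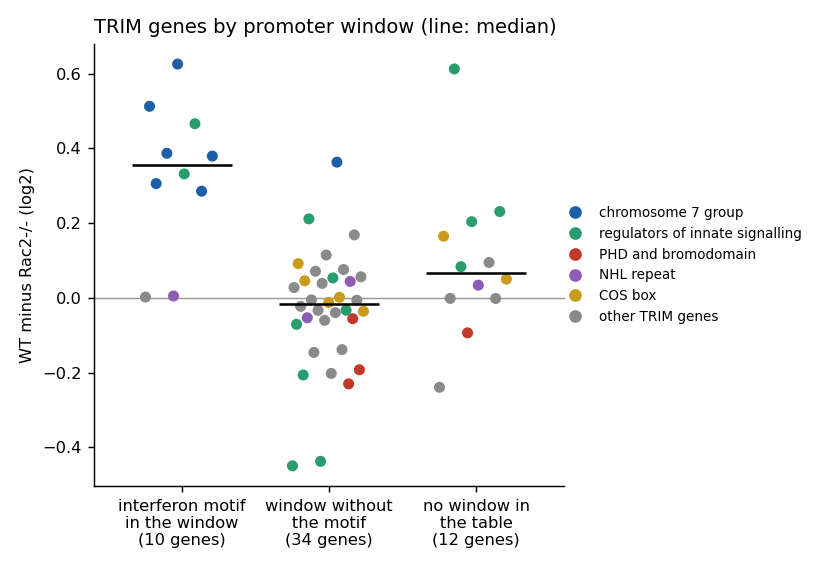
Difference between WT and Rac2-/- BMDMs (y axis, log2, WT minus Rac2-/-) of the 56 tested TRIM genes by what the RefSeq promoter window holds (x axis), one point per gene coloured by group, with the median as a line. The 10 genes with the interferon motif have a median of 0.36, the 34 without it one of -0.02 and the 12 with no window one of 0.07.

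TRIM motif proteins that carry other names were measured for 7 of 8 genes, and 1 of 7 was called, higher in WT, beside 1.34% of all genes. Of the 7, 4 lay on the WT side and 3 (Mefv, Bspry and Triml1) on the Rac2-/- side, with a median of 0.06. Rnf135 (Riplet), which attaches ubiquitin to RIG-I as Trim25 does, had levels of 9.26, 9.24, 9.18, 9.18 and 9.10 in WT and of 8.79, 8.78, 8.59, 8.55 and 8.03 in Rac2-/- BMDMs, a rise of 0.64 in WT (0.34 to 0.95, adjusted p = 0.0451), with 0.46 and 0.76 within the sets. Mid1, which binds microtubules through its COS box, had levels of 9.01, 8.44, 10.01, 9.95 and 9.47 in WT and of 7.44, 7.08, 8.42, 8.35 and 7.95 in Rac2-/- BMDMs. Every WT array was above every Rac2-/- array, and the difference of 1.53 (0.74 to 2.31) had an adjusted p of 0.0646, and of 2.7e-04 with the array number as a block. It was 1.47 and 1.57 within the sets. Pml, the scaffold of nuclear bodies, had a difference of 0.52 (0.11 to 0.92, adjusted p = 0.270, and 0.0366 with the block), and 0.43 and 0.57 within the sets.

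The list of interferon response genes was chosen with earlier results of these data known. A common direction within it was therefore open to that choice, and does not stand for interferon-inducible genes at large. Of its 36 genes, 31 were tested and 31 of 31 lay on the WT side. Their median was 0.73 (0.59 and 0.87 within the sets), beside the -0.0011 of all genes. Of these, 14 passed, all higher in WT, beside 1.34% of all genes in that direction. They were Cmpk2, Dhx58, Herc6, Ifi35, Ifih1, Ifit1, Ifit3, Mx1, Oas3, Oasl1, Rsad2, Stat2, Usp18 and Zbp1. The largest difference was that of the antiviral GTPase Mx1, 1.82, followed by Oasl1, 1.66, an inhibitor of the translation of Irf7, and Cmpk2, 1.52, a mitochondrial nucleotide kinase. Rsad2 (viperin) differed by 1.41 and Stat2, a subunit of the factor that binds the response element, by 0.79. Over the arrays of the same number the median of the 31 genes was 0.26, 0.89, 0.69, 0.61 and 1.30 for numbers 1 to 5. It was smallest at number 1 and largest at number 5, as for the chromosome 7 group. The TRIM differences were smaller than most of these, with a median of 0.38 in the chromosome 7 group. The paper reports an interferon-inducible gene, Ifi27l1, as higher in Rac2-/- BMDMs. That gene was not among the tested genes of the list.

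Genes of interferon production and receptors, taken as a list, showed no such direction. Of 19 tested genes of interferon production and receptors, 11 lay on the WT side, the median was 0.05 (-0.04 and 0.07 within the sets), and 0 passed. An unadjusted p under 0.05 was found for 6 of them, 4 on the WT and 2 on the Rac2-/- side. With the array number as a block Irf5 and Socs1 were higher in WT (adjusted p = 0.0482 and 0.0354) and Ifngr1 (0.0244) was higher in Rac2-/- BMDMs. The ligand gene Ifnb1, at low levels (means of 5.55 in WT and 5.17 in Rac2-/- BMDMs), was higher in WT at 5 of 5 numbers. Its difference was 0.38 (-0.03 to 0.78, adjusted p = 0.544, and 0.0178 with a term for the sets of arrays). For Tyk2 (0.24) every WT array was above every Rac2-/- array, and for Ifngr1 (-0.31) every Rac2-/- array was above every WT array. Of 12 tested NF-kB partners of TRIM proteins, among them Tab2 (-0.05) and Tab3 (-0.06), 3 lay on the WT side and 0 passed, with the block 0 as well, and 2 had an unadjusted p under 0.05, both higher in Rac2-/- BMDMs. Of 11 tested ubiquitin-conjugating enzymes, 1 passed, higher in WT, beside 1.34% of all genes. With the array number as a block Ube2w (-0.37, adjusted p = 0.0194) was called as well, higher in Rac2-/- BMDMs, beside 4.04% of all genes. The one that passed without the block was Ube2l6, the enzyme that passes on ISG15, with levels of 11.36, 11.54, 11.44, 11.40 and 11.68 in WT and of 11.12, 10.32, 10.33, 10.32 and 10.21 in Rac2-/- BMDMs and a difference of 1.02 (0.65 to 1.39, adjusted p = 0.0133), with 0.72 and 1.22 within the sets.

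The 12 genes listed as partners of TRIM28 in repression all lay on the Rac2-/- side, as Trim28 did, with a median of -0.17 (-0.13 and -0.21 within the sets). Of all genes, 49.7% lay on the WT side. This list too was chosen with earlier results of these data known, so its common direction was open to that choice. Chd4, the remodelling ATPase of the NuRD complex, was the 1 gene of the 12 that passed, beside 1.05% of all genes in that direction. It had levels of 10.15, 10.13, 10.10, 10.19 and 10.01 in WT and of 10.53, 10.62, 10.59, 10.67 and 10.56 in Rac2-/- BMDMs, with a difference of -0.48 (-0.63 to -0.33, adjusted p = 0.00633) and -0.43 and -0.51 within the sets. Setdb1, the histone methyltransferase that TRIM28 brings in, had a difference of -0.19 (adjusted p = 0.636).

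**Figure D4:**
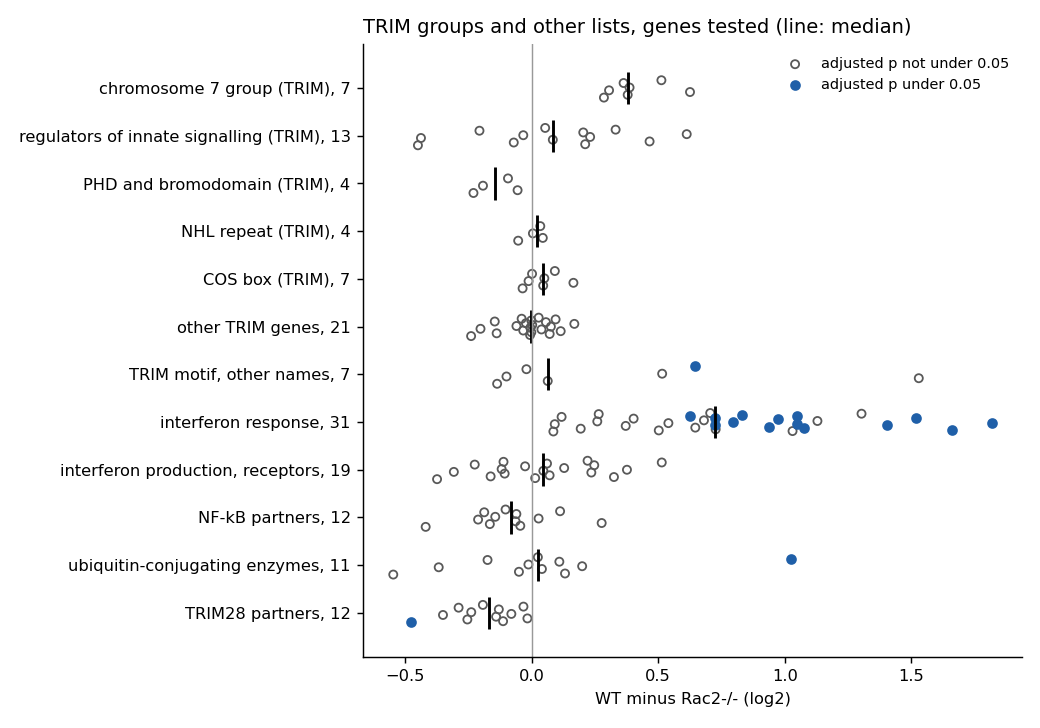
Difference between WT and Rac2-/- BMDMs (x axis, log2, WT minus Rac2-/-) of the tested genes of each TRIM group and of 6 other lists (rows, with the number tested), one point per gene, filled where the limma adjusted p was under 0.05, with the median as a line. The medians are 0.38 for the chromosome 7 group, 0.73 for interferon response genes and -0.17 for the partners of TRIM28.

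Markers of other cells moved with genotype in part. Of the 7 listed markers of plasmacytoid dendritic cells, which make much type I interferon, 6 were measured, with summed log2 levels of 50.5 to 53.6 in WT and 47.8 to 50.6 in Rac2-/- BMDMs. All 6 lay on the WT side, 0 passed, and with the array number as a block Ccr9 (1.05) and Siglech (0.62) were higher in WT. The list also holds Bst2 and Irf8, which the interferon lists hold too. The 7 mast cell and basophil markers summed to 35.2 to 40.1 in WT and 33.4 to 34.7 in Rac2-/- BMDMs, so that all WT arrays were higher. No marker is at 0 on these arrays, which give a value to every feature. The part of such cells in the TRIM differences was not tested.

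The 2 sets of arrays changed the levels of several members more than genotype did. For 32 of the 56 TRIM genes (57.1%) the difference between arrays 1 and 2 and arrays 3 to 5 was larger in size than the genotype difference, as it was for 71.1% of all genes tested. For 13 of the 56, the 4 arrays numbered 1 and 2 lay all above or all below the other 6, beside 33.1% of all genes. The largest was that of Trim33, with levels of 7.66, 8.00, 9.15, 9.07 and 9.26 in WT and of 8.01, 7.91, 9.32, 9.23 and 9.15 in Rac2-/- BMDMs, which gives a difference between the sets of -1.30. Trim12c was higher in arrays 1 and 2 by 1.05, Trim32 by 0.66 and Trim28 by 0.55, and Trim13 (-0.86), Trim65 (-0.70), Trim24 (-0.66) and Trim8 (-0.65) were lower there. No source used here says what set the 2 groups of arrays apart. In the chromosome 7 group the set differences were -0.02 for Trim30a, -0.04 for Trim34a, 0.12 for Trim21, -0.28 for Trim30d, -0.35 for Trim6 and 0.46 for Trim12a, beside the 1.05 of Trim12c.

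**Figure D5:**
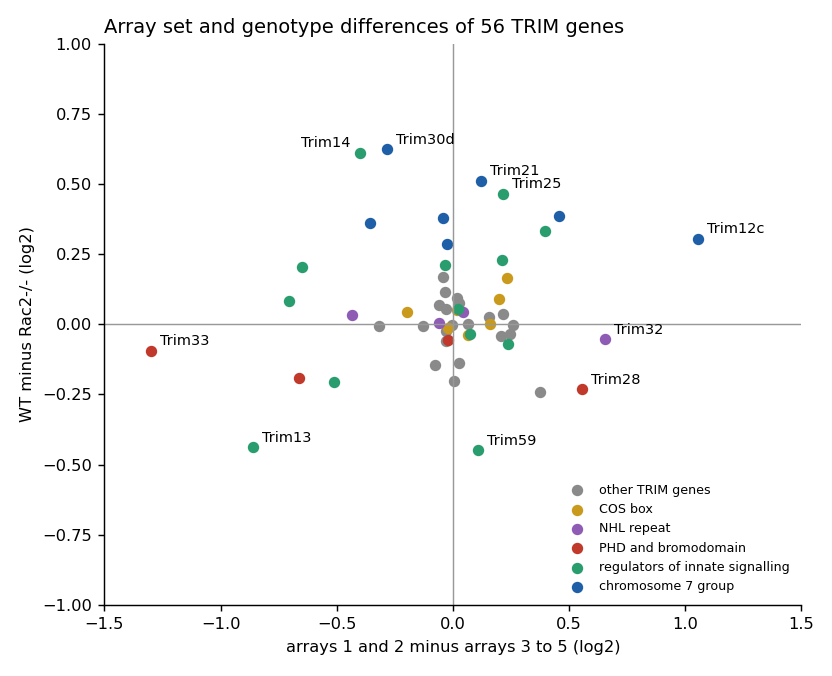
Difference between the 2 sets of arrays (x axis, log2, arrays 1 and 2 minus arrays 3 to 5) against the difference between genotypes (y axis, log2, WT minus Rac2-/-) of the 56 tested TRIM genes, one point per gene, coloured by group. Trim33 and Trim12c lie furthest out along the x axis, at -1.30 and 1.05. The genes of the chromosome 7 group lie above 0 on the y axis, from -0.355 (Trim6) to 1.05 (Trim12c) along the x axis.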

How the data were processed

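The authors hybridised RNA of BMDMs to Affymetrix mouse whole-transcript arrays and deposited log2 values made with RMA, which corrects the background, normalises the arrays by quantiles and summarises the probes of a feature. No header gives the log base. Base 2 was assumed, as RMA gives, from the range of 1.69 to 13.7 and array medians of 6.07 to 6.14. The number of arrays limits the precision. No pair of the 10 arrays was identical. The methods name a filter that leaves 27031 features, ComBat and limma. The deposited table has 34760 features, and its arrays still fall into 2 sets, so the same number of features was kept here, ranked by the fourth of their 10 values in descending order (lowest kept 4.73).

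Gene names came from the platform annotation, updated through RefSeq (GRCm38.p6) by Entrez identifier for 21553 features. Of all features, 21640 had 1 symbol, 1321 had several and 11799 were not listed. Each TRIM gene with a value had 1 feature of its own. For other genes with several, the one with the highest mean over the 10 arrays was taken.

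Differences were tested with limma 3.58.1 under R 4.3.3, by lmFit and eBayes on all 10 arrays without a block, with Benjamini-Hochberg adjustment over all features kept and a threshold of 0.05. Intervals are at 95%. The fit was tested on simulated data. The exact test used scipy 1.17.1, and the parametric form of ComBat was written out in R. Alternatives were the filter, the array number as a block, a term for the 2 sets of arrays, ComBat on them, each set alone, a trended and robust variance, array weights, quantile normalization, median centring, the mean of a gene's features and leaving out each array. With arrays 1 and 2 alone there are 2 arrays per genotype.

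After each group mean was subtracted, WT and Rac2-/- arrays of one number correlated at 0.493 to 0.716. As each pair lay over 0.1, arrays of one number were taken as pairs, which is an assumption. The correlation was 0.476 to 0.724 for other numbers of the same set and -0.716 to -0.515 between the sets, and for 5 of 10 arrays it was highest with the array of the same number.

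The members and the gene lists were chosen with earlier results of these data known, and so was the division of the arrays into 2 sets. Named were members past the threshold with or without the block, those of the chromosome 7, PHD-bromodomain, NHL repeat and COS box groups, the 5 with the highest means and the 5 with the largest differences, and those whose groups did not overlap. The other TRIM genes named, and the genes of other lists that did not pass, were chosen after their values were seen. Lists of other TRIM-related genes are described by counts and medians. Markers of conventional dendritic cells, neutrophils, T, NK and B cells and stroma were also listed. Of these, only the dendritic cell markers Ccr7 (0.91) and Itgax (-1.95) passed.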

Additional observations from a re-analysis of the deposited data

Results flagged for a closer look

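Among the 26 TRIM genes named by rule, 1 of 52 groups of 5 arrays held an array far from the other 4, where chance alone gives about 1 in 20. It was Trim2 in Rac2-/- BMDMs, with 5.77 in array 5 and 5.29 to 5.35 in the other 4 arrays. WT array 5 was also the highest of its group for Trim2, at 5.69.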

How the results depend on the processing

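The count of TRIM genes past the threshold depended on how the 2 sets of arrays were treated. It was 0 higher in WT without a term for them, 3 with the array number as a block (replicate block: Trim6, Trim14 and Trim25), 7 with a term for the sets, 11 with ComBat on the sets, 5 within arrays 3 to 5, 7 with array weights, and 0 to 2 when 1 array was left out, the 2 being Trim21 and Trim25 without Rac2-/- array 1. Higher in Rac2-/- BMDMs were 0, but 1 (Trim28) with the term and 2 (Trim13 and Trim28) with ComBat. Why these counts differ was not tested. Over all genes the calls higher in WT went from 226 to 593, 874, 1444, 516 and 687 under the same block, term, ComBat, arrays 3 to 5 and weights, and those higher in Rac2-/- BMDMs from 177 to 682, 1028, 1715, 475 and 636. The block changed no other TRIM call. The median difference stayed between 0.01 and 0.05 for all TRIM genes and between 0.25 and 0.52 for the chromosome 7 group under the 21 alternatives.

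Of 546 values of the 26 named genes under the alternatives, 468 kept their direction and side of the threshold, 35 passed it and 43 changed direction. The changes of direction were all in genes close to 0 that never passed: Trim2 (-0.0814 within arrays 3 to 5, -0.0812 with weights, -0.0034 with quantile normalization, -0.0118 with centring), Trim3 (-0.15 within arrays 1 and 2), Trim54 (-0.0428 within arrays 1 and 2, -0.0169 and -0.0152 with quantile normalization and centring), Trim55 (-0.0248 within arrays 3 to 5), Trim67 (0.0988 within arrays 1 and 2), Trim71 (-0.0038 within arrays 1 and 2) and Trim9 (0.0090 within arrays 3 to 5, 0.0045 with weights). Leaving out 1 array gave -0.0655 to 0.0956 for Trim2, -0.0482 to 0.135 for Trim3, -0.175 to 0.0644 for Trim32, -0.297 to 0.147 for Trim33, -0.0537 to 0.0728 for Trim54, -0.0400 to 0.0043 for Trim67, -0.0114 to 0.101 for Trim71 and -0.0658 to 0.0035 for Trim9. With arrays 1 and 2 alone, 1 gene in each direction was called over all genes, so that 0 TRIM calls there says little.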
